A study of Mus musculus with 10 samples.

Results

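Bmp7, Mmp14, Smtn, Tbc1d30, Ptpn4, Chn2, Sytl3, Slfn5, Rcn1 and Ust are 10 of the 48321 gene symbols counted in sorted mouse CD4+ T cells. They were chosen from the measured values, because their counts differed between Satb1 knockout (KO) and wild-type (WT) cells that lacked both FoxP3 and CD25. The difference between those 4 libraries is therefore given as a description only. The stated rule did not use the values of the same genes in the other 6 libraries. Earlier results of these data were known when the genes were chosen, so those libraries cannot be called independent of the choice.

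The study asked what the nuclear factor SATB1 does in peripheral CD4+ T cells, by sequencing bulk RNA from cells sorted out of mouse spleen. KO mice were C57BL/6 with a Satb1 F/F allele and Thpok-cre, and WT mice were their controls. Both carried a FoxP3-GFP reporter, so that GFP marked cells with FoxP3. Thpok-cre acts once thymocytes commit to the CD4 lineage, so the deletion was designed for the whole CD4+ compartment, FoxP3-negative and FoxP3-positive cells alike. The authors' methods describe adult mice of both sexes, but no label ties an age or a sex to a library or says whether WT mice carried Cre. The 10 libraries formed 5 groups of 2: WT and KO FoxP3-CD25- cells, WT and KO FoxP3+CD25+ cells, and KO FoxP3+CD25- cells, for which no WT group was sequenced. Libraries held between 6094952 and 12410064 counts on genes (median 7721649), so 3 counts, the upper limit that a count of 0 allows from counting error alone, equalled 0.242 to 0.492 CPM (normalised counts, scaled so that libraries of any depth compare).

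SATB1 binds AT-rich DNA and helps to fold chromatin in thymocytes and T cells. CD4+ T cells divide into conventional helper cells, which lack FoxP3, and regulatory T cells, which are defined by the transcription factor FoxP3 and usually carry the interleukin-2 receptor chain CD25, the product of Il2ra. FoxP3-CD25- cells of the spleen are a mixture of naive and antigen-experienced helper cells.

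Satb1 itself was the first gene examined. Its level was 818 and 881 CPM in replicates 1 and 2 of WT FoxP3-CD25-, 841 and 682 in KO FoxP3-CD25-, 1190 and 993 in KO FoxP3+CD25-, 379 and 478 in WT FoxP3+CD25+ and 598 and 534 in KO FoxP3+CD25+ cells. KO libraries were thus not low in Satb1: they overlapped WT libraries in FoxP3-CD25- cells and lay above them in FoxP3+CD25+ cells. A count summed over a gene does not resolve the exons that a conditional allele removes, so the deletion could not be read from these values, and every direction given here is that of libraries labelled KO. The KO minus WT difference of Satb1 was -0.16 on the log2 scale (SE 0.15) among FoxP3-CD25- cells and 0.40 (SE 0.15, FDR 1 by edgeR's quasi-likelihood test with Benjamini-Hochberg adjustment) in FoxP3+CD25+ cells.

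The sort genes followed the labels with 1 limit. Foxp3 was at 18.6 and 18.0 CPM in WT FoxP3-CD25- and 38.9 and 19.5 in KO FoxP3-CD25-, against 361 and 318 in KO FoxP3+CD25-, 715 and 618 in WT FoxP3+CD25+ and 739 and 646 in KO FoxP3+CD25+ cells. Il2ra was at 3.56 and 1.55 CPM in WT FoxP3-CD25-, 11.4 and 5.40 in KO FoxP3-CD25-, 16.8 and 16.7 in KO FoxP3+CD25-, 658 and 760 in WT FoxP3+CD25+ and 627 and 679 in KO FoxP3+CD25+ cells. Both genes were thus present at a low level in FoxP3-CD25- libraries. The KO minus WT difference there was 1.63 on the log2 scale (SE 0.37, edgeR FDR 0.18) for Il2ra. For Foxp3 it was 0.66 (SE 0.25, edgeR FDR 0.511) and rested on KO replicate 1, since KO replicate 2, at 19.5 CPM, was close to WT.

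Both libraries of WT replicate 1 stood apart. They held 16362 (FoxP3-CD25-) and 14487 (FoxP3+CD25+) counts of the female-specific RNA Xist and 0 counts on the Y-linked genes examined. Each of the other 8 libraries had at most 4 counts of Xist and between 3039 and 4750 on Y-linked genes. By these counts WT replicate 1 was female, while WT replicate 2 and every KO library were male. Sex was thus not balanced between the genotypes. Differences between KO and WT are therefore also given without WT replicate 1, an alternative chosen after seeing the data. They cover Satb1, the 10 genes, some of their neighbours and relatives, and the medians of relatives and subset markers. Without WT replicate 1, Satb1 was at -0.21 (SE 0.17) for FoxP3-CD25- and 0.25 (SE 0.17) for FoxP3+CD25+ cells.

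Bmp7 and Mmp14 act at the cell surface and outside it. Bmp7 encodes a secreted ligand of the bone morphogenetic protein (BMP) family and lies on chromosome 2 of GRCm38, from 172868012 to 172940321 on the minus strand. Its level was 16.1 and 14.4 CPM in WT FoxP3-CD25-, 48.3 and 40.7 in KO FoxP3-CD25-, 43.3 and 39.3 in KO FoxP3+CD25-, 42.6 and 41.7 in WT FoxP3+CD25+ and 58.0 and 52.4 in KO FoxP3+CD25+ cells. WT FoxP3-CD25- cells were the low group at 15.3 ± 1.15 CPM (SD, n = 2), KO FoxP3+CD25+ cells the high group at 55.2 ± 3.94, and the libraries of the remaining 3 groups overlapped. Mmp14 encodes a matrix metalloproteinase anchored in the plasma membrane (chromosome 14, 54431612 to 54445364, plus strand). Its level was 1.74 and 2.89 CPM in WT FoxP3-CD25-, 26.0 and 15.0 in KO FoxP3-CD25-, 21.3 and 13.8 in KO FoxP3+CD25-, 4.86 and 5.55 in WT FoxP3+CD25+ and 18.2 and 15.1 in KO FoxP3+CD25+ cells. Here the order followed the genotype: the 3 KO groups overlapped one another, at 20.5 ± 7.74, 17.6 ± 5.34 and 16.6 ± 2.18 CPM, and lay above both WT groups, which did not overlap each other (5.21 ± 0.487 for FoxP3+CD25+ and 2.31 ± 0.813 for FoxP3-CD25- cells).

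Smtn encodes smoothelin, an actin-binding protein of contractile smooth muscle (chromosome 11, 3517523 to 3540612, minus strand). Its level was 7.62 and 7.53 CPM in WT FoxP3-CD25-, 36.1 and 31.1 in KO FoxP3-CD25-, 2.1 and 0.766 in KO FoxP3+CD25-, 1.54 and 0.827 in WT FoxP3+CD25+ and 1.22 and 1.18 in KO FoxP3+CD25+ cells. KO FoxP3-CD25- cells were highest (33.6 ± 3.51 CPM), WT FoxP3-CD25- cells came next (7.58 ± 0.0616), and the 3 FoxP3+ groups lay at 1.18 to 1.43 CPM with libraries that overlapped. An RNA of the opposite strand, Gm11946, shares 714 of the 4380 exon bases of Smtn. Its counts in the same order of libraries were 25, 27, 62, 79, 3, 3, 2, 0, 3 and 2, so that it was high and low with Smtn. Since the strand setting of the counting was not stated, reads of Smtn and Gm11946 may not have been kept apart, and the part of this overlap in either value was not tested.

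Sytl3 and Tbc1d30 encode proteins of vesicle traffic: SYTL3 binds the small GTPase RAB27A on secretory vesicles, and TBC1D30 belongs to the proteins that switch off Rab GTPases. Sytl3 (chromosome 17, 6659093 to 6738044, plus strand) was at 3.56 and 3.41 CPM in WT FoxP3-CD25-, 8.44 and 7.38 in KO FoxP3-CD25-, 1.13 and 1.20 in KO FoxP3+CD25-, 0.384 and 0.472 in WT FoxP3+CD25+ and 1.07 and 2.1 in KO FoxP3+CD25+ cells. As with Smtn, the FoxP3-CD25- libraries were the high ones and KO lay above WT among them, while the values in FoxP3+ cells rested on 3 to 16 counts a library. Tbc1d30 (chromosome 10, 121263820 to 121351278, minus strand) was at 50.7 and 39.1 CPM in WT FoxP3-CD25-, 11.4 and 15.2 in KO FoxP3-CD25-, 40.1 and 35.3 in KO FoxP3+CD25-, 88.3 and 73.7 in WT FoxP3+CD25+ and 52.3 and 51.0 in KO FoxP3+CD25+ cells. The low group was KO FoxP3-CD25- (13.3 ± 2.64 CPM), and KO FoxP3+CD25- cells (37.7 ± 3.36) overlapped WT FoxP3-CD25- cells (44.9 ± 8.19).

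Rcn1 and Ust work in the secretory pathway. Rcn1 encodes reticulocalbin 1, a calcium-binding protein of the endoplasmic reticulum (chromosome 2, 105386291 to 105399319, minus strand). It was at 31.4 and 21.7 CPM in WT FoxP3-CD25-, 14.4 and 17.0 in KO FoxP3-CD25-, 14.4 and 16.5 in KO FoxP3+CD25-, 92.1 and 113 in WT FoxP3+CD25+ and 45.0 and 53.3 in KO FoxP3+CD25+ cells. WT FoxP3+CD25+ cells were highest at 103 ± 15.0 CPM, KO FoxP3+CD25+ cells followed at 49.2 ± 5.88, and both CD25- KO groups were lowest and overlapped (15.7 ± 1.84 and 15.5 ± 1.51). Ust encodes a Golgi enzyme that adds sulfate to uronic acid in chondroitin and dermatan sulfate chains (chromosome 10, 8204756 to 8518825, minus strand). Its level was 18.7 and 14.7 CPM in WT FoxP3-CD25-, 4.96 and 7.90 in KO FoxP3-CD25-, 2.1 and 5.36 in KO FoxP3+CD25-, 7.68 and 5.67 in WT FoxP3+CD25+ and 2.44 and 1.70 in KO FoxP3+CD25+ cells. Only WT FoxP3-CD25- libraries stood clear of the rest for this gene, since each of the other 4 groups overlapped the group next to it in the order of means.

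Chn2 and Ptpn4 encode signalling proteins. Chn2 encodes beta-chimaerin, which switches off the GTPase RAC (chromosome 6, 54039554 to 54301810, plus strand). Its level was 21.0 and 17.2 CPM in WT FoxP3-CD25-, 35.1 and 27.7 in KO FoxP3-CD25-, 30.6 and 33.6 in KO FoxP3+CD25-, 11.1 and 8.5 in WT FoxP3+CD25+ and 16.9 and 15.7 in KO FoxP3+CD25+ cells. Both CD25- KO groups overlapped at the top (31.4 ± 5.23 and 32.1 ± 2.15 CPM), and KO FoxP3+CD25+ cells (16.3 ± 0.859) lay between the WT groups (19.1 ± 2.69 and 9.82 ± 1.86). Ptpn4 encodes a tyrosine phosphatase of the cytoplasm (chromosome 1, 119652467 to 119837613, minus strand). It was at 65.0 and 57.0 CPM in WT FoxP3-CD25-, 102 and 113 in KO FoxP3-CD25-, 130 and 148 in KO FoxP3+CD25-, 79.8 and 62.7 in WT FoxP3+CD25+ and 102 and 106 in KO FoxP3+CD25+ cells. The 3 KO groups lay above both WT groups, which overlapped, and KO FoxP3+CD25- cells were the highest at 139 ± 13.1 CPM.

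Slfn5 belongs to the Schlafen family, whose genes respond to interferon in many cells (chromosome 11, 82951349 to 82964840, plus strand). Its level was 242 and 235 CPM in WT FoxP3-CD25-, 423 and 339 in KO FoxP3-CD25-, 521 and 481 in KO FoxP3+CD25-, 279 and 250 in WT FoxP3+CD25+ and 361 and 364 in KO FoxP3+CD25+ cells. As with Ptpn4, the KO groups lay above the WT groups and KO FoxP3+CD25- cells were the highest (501 ± 28.6 CPM). Antisense RNAs share exon bases with some of these genes too: 559 bases between Slfn5 and Slfn5os and 552 between Chn2 and 9130019P16Rik.

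**Figure D1:**
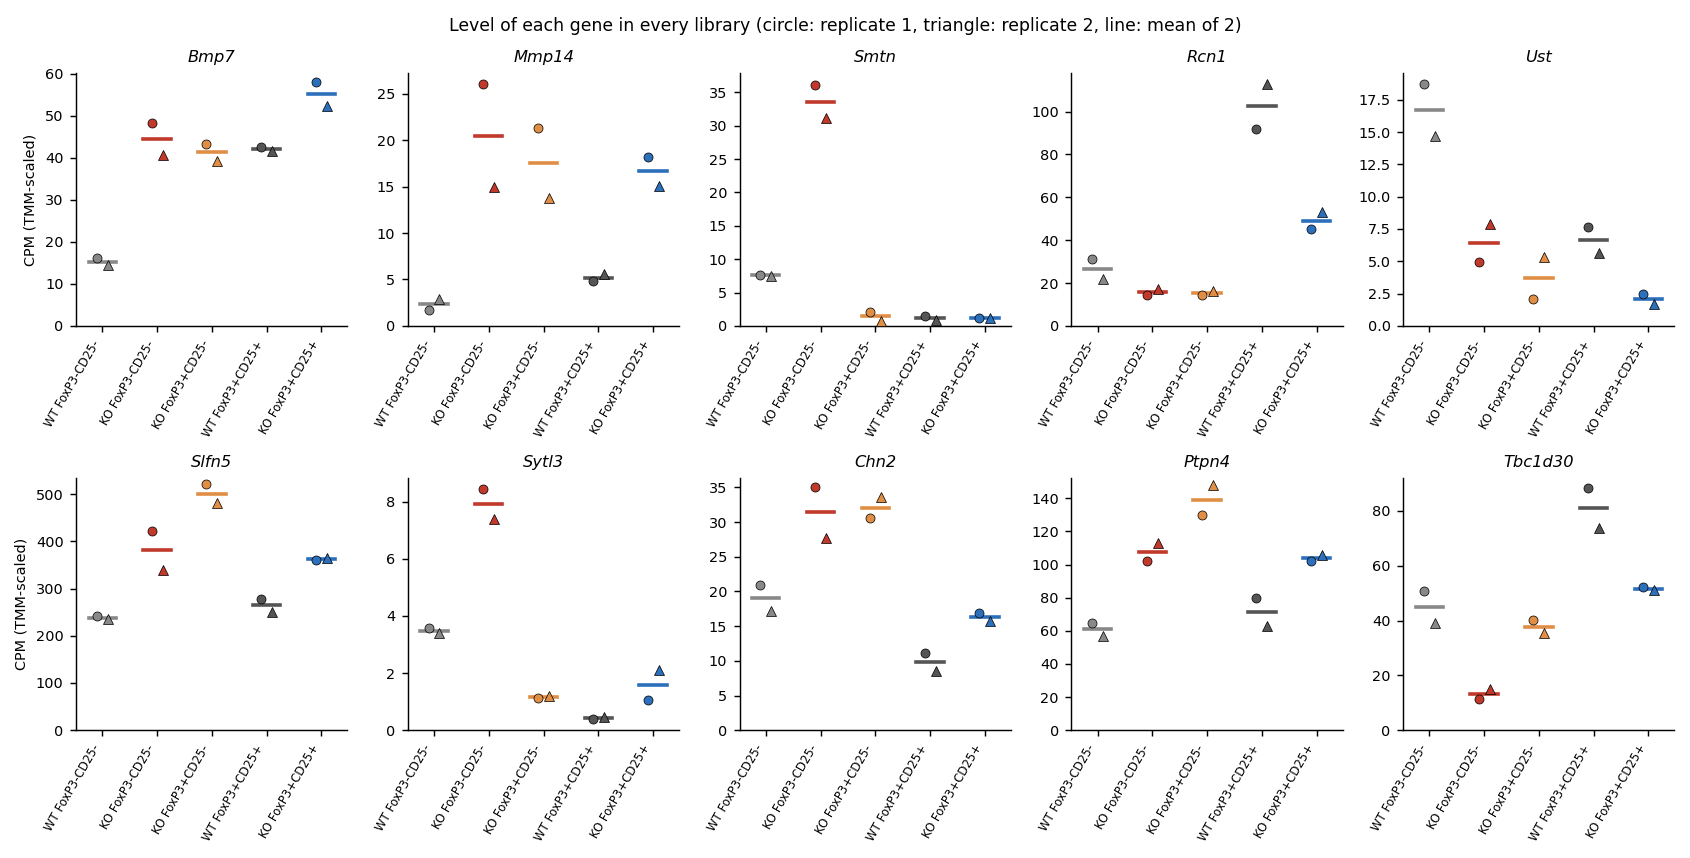
Level of each of the 10 genes in CPM (vertical axes, each starting at 0) in the 10 libraries, by sorted group, where circles are replicate 1, triangles are replicate 2 and lines are the means of 2. Mmp14 sits at 13.8 CPM or above in the 6 KO libraries and at 5.55 or below in the 4 WT libraries, whereas Smtn is at 7.53 CPM or above in FoxP3-CD25- libraries and at 2.1 or below in the other 6.

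Levels of different genes are comparable only per kilobase of exon. In KO FoxP3-CD25- cells Slfn5 was the most abundant of the genes at 60.2 CPM per kb, followed by Bmp7 at 11.1 and Ptpn4 at 9.53, and Ust was the least abundant at 1.39. In WT FoxP3-CD25- cells Slfn5 led again at 37.7 CPM per kb, with Rcn1 next at 8.30, and Mmp14 was last at 0.388. Mmp14, last in WT cells, was at 3.44 CPM per kb in KO cells, above Tbc1d30 at 1.97.

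The promoters of Slfn5 and Ptpn4, the pair of the 10 with the highest Pearson's r over the libraries (0.943), and of Smtn and Mmp14, whose KO and WT FoxP3-CD25- levels were farthest apart on the log2 scale, are shown for what they share in sequence. They come from RefSeq on GRCm38.p6, each from 250 bases before to 50 bases after a start of the gene, and read 5′ to 3′ on the gene's strand with CG dinucleotides in capitals. The windows are chr11:82951852-82952151 (plus strand) for Slfn5, chr1:119837022-119837321 (minus strand) for Ptpn4, chr11:3539243-3539542 (minus strand) for Smtn and chr14:54431348-54431647 (plus strand) for Mmp14.
Slfn5: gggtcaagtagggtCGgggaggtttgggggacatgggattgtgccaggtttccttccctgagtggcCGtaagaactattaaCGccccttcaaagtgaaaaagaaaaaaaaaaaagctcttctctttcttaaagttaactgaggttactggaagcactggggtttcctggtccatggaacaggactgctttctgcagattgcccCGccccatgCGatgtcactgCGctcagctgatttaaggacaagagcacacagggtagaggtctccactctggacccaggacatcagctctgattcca
Ptpn4: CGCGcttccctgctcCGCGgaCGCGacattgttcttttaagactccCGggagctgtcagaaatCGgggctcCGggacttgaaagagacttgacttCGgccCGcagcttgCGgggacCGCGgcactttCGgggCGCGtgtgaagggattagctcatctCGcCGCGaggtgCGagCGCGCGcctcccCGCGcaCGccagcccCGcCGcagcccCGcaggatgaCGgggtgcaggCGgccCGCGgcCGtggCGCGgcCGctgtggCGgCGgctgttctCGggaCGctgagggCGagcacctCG
Smtn: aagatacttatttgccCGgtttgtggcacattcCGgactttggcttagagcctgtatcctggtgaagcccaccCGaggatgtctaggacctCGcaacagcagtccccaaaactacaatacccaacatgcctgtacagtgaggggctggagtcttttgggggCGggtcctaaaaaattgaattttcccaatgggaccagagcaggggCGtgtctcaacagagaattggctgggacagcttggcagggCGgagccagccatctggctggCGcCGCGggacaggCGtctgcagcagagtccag
Mmp14: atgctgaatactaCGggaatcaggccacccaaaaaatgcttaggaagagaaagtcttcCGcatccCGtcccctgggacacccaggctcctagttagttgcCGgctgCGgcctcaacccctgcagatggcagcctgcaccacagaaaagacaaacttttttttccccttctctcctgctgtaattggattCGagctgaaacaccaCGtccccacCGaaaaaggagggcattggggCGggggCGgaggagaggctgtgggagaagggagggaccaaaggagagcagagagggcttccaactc

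Composition differed among these sequences. Ptpn4 held 44 CG dinucleotides and was 29.0% A+T, whereas Slfn5 held 6 and was 49.7% A+T. Smtn held 11 and was 43.7% A+T, and Mmp14 held 10 and was 44.0% A+T. Over all 32851 promoters of the table the median was 7 CG dinucleotides and 47.3% A+T, and 94.6% held at least 1 CG. Promoters were found for 7 of the 10 genes, in 10 windows, and Bmp7, Rcn1 and Tbc1d30 had none in the table. The letters AATATATTT, the core of a sequence bound by SATB1, were in 0 of the 10 windows on either strand and in 0.371% of all promoters. TATAAA was in 0 windows (13.6% of all promoters), CACCTG in 1 window, of Sytl3 (20.2%), and GGAAGT in 2 windows, both of Chn2 (23.8%). A match or its absence describes these letters in these windows and nothing about a factor.

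In FoxP3-CD25- cells, the contrast from which the genes were chosen, 7 genes were higher and 3 lower in libraries labelled KO. The KO minus WT difference on the log2 scale was 3.15 (SE 0.37) for Mmp14, 2.14 (SE 0.24) for Smtn, 1.54 (SE 0.14) for Bmp7, 1.17 (SE 0.28) for Sytl3, 0.82 (SE 0.14) for Ptpn4, 0.70 (SE 0.18) for Chn2 and 0.68 (SE 0.12) for Slfn5. It was -1.75 (SE 0.19) for Tbc1d30, -1.36 (SE 0.33) for Ust and -0.76 (SE 0.21) for Rcn1. The choice had no stated threshold, and 4 of the 10 genes (Bmp7, Tbc1d30, Smtn and Mmp14) were among the 20 genes, 0.145% of the 13796 tested, with an FDR under 0.05 by edgeR's quasi-likelihood test with Benjamini-Hochberg adjustment. Since these libraries chose the genes, nothing is read from that count. Just inside that line was Trerf1 (FDR 0.0493), which is not among the 10, and just outside it was Ptpn4 (FDR 0.0675). These counts rested on single libraries: the 20 genes were 0 without WT FoxP3-CD25- replicate 1, 1 without WT replicate 2, 0 without KO replicate 1 and 4 without KO replicate 2, and the 4 of the 10 were 0, 1, 0 and 3. With both libraries of WT replicate 1 left out, every direction was kept, and the differences were 2.80 for Mmp14, 2.15 for Smtn, 1.62 for Bmp7, 1.21 for Sytl3, 0.93 for Ptpn4, 0.86 for Chn2, 0.70 for Slfn5, -1.54 for Tbc1d30, -1.15 for Ust and -0.45 for Rcn1. In bulk RNA, a change in how many cells express a gene and a change in RNA per cell cannot be told apart.

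The comparison of KO with WT FoxP3+CD25+ cells used 4 libraries that the stated rule did not use, and asked whether the same genes differed in regulatory T cells. With these 4 libraries alone, 8 of the 10 genes passed the low-count filter. Smtn (7 to 12 counts a library) and Sytl3 (3 to 16 counts) passed only through FoxP3-CD25- cells, where they were high, and are left out of the counts that follow. The libraries of the genotypes did not overlap for any of the 8 genes: 5 were higher in libraries labelled KO, beside 13.5% of all genes tested, and 3 were lower, beside 14.2%. Of the genes left out, Smtn overlapped and Sytl3 was higher in KO without overlap. Shares of all genes tested by edgeR are over the 13796 that passed the filter with 10 libraries, not with these 4 alone. By edgeR's quasi-likelihood test with Benjamini-Hochberg adjustment, 0 of the 8 had an FDR under 0.05, beside 0.00725% of all genes, which is 1 gene. That gene was Cacna1f (named after its values were seen), with 0 counts in the 4 WT libraries and 73 and 92 in KO FoxP3+CD25+ cells. All 8 had an unadjusted p under 0.05 by edgeR's test, beside 4.29% of all genes. DESeq2 called 2 (Mmp14 and Rcn1), beside 0.0177% of the genes it tested. The genes and libraries share a study and, as the replicate numbers imply, mice with the contrast that chose them, so these counts are a description.

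Rcn1 had the lowest p of the 8 genes in FoxP3+CD25+ cells: its difference was -1.06 (SE 0.18) on the log2 scale, with both KO libraries below both WT libraries (edgeR FDR 0.469). DESeq2 gave it an FDR of 0.00997, and over the 13 alternatives tried its FDR lay between 0.00997 and 1. Mmp14 differed by 1.66 (SE 0.34, edgeR FDR 0.922), again with no overlap. DESeq2 gave it an FDR of 0.0438, within a range of 0.0438 to 1 over 13 alternatives. The remaining 6 of the 8 genes had an FDR of 1 by edgeR. Their differences on the log2 scale were 0.74 (SE 0.21) for Chn2, 0.55 (SE 0.14) for Ptpn4, 0.45 (SE 0.12) for Slfn5, 0.39 (SE 0.13) for Bmp7, -0.65 (SE 0.16) for Tbc1d30 and -1.69 (SE 0.47) for Ust. Sytl3, at 1.87 (SE 0.59), and Smtn, at 0.04 (SE 0.57), are given without a test because of their low counts. Whether any of these differences is unlike that in FoxP3-CD25- cells is a separate question: by edgeR's test of the difference between the populations, 0 of 13796 genes had an FDR under 0.05, with 685 at an unadjusted p under 0.05. For the 10 genes, 1 side of that difference chose them, so their values (FoxP3+CD25+ minus FoxP3-CD25-) are given without a test: -2.11 (SE 0.63) for Smtn, -1.49 (SE 0.52) for Mmp14, -1.15 (SE 0.19) for Bmp7, 1.10 (SE 0.25) for Tbc1d30 and 0.70 (SE 0.66) for Sytl3, with the other 5 between -0.34 and 0.03.

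Single libraries changed some of these values. Genes called between KO and WT FoxP3+CD25+ cells numbered 7 without WT FoxP3+CD25+ replicate 2 and 2 without KO FoxP3+CD25+ replicate 2, against 1 with every library. The sign of Smtn turned, to -0.36, without WT FoxP3+CD25+ replicate 2. With both libraries of WT replicate 1 left out, 3 genes were called and 0 of the 10. Rcn1 was then at -1.20, Mmp14 at 1.57, Ust at -1.46, Ptpn4 at 0.73 and Tbc1d30 at -0.51. In the same setting Chn2 was at 0.94, Slfn5 at 0.54 and Bmp7 at 0.4. Sytl3 was at 1.74 and Smtn at 0.53, both on low counts.

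**Figure D2:**
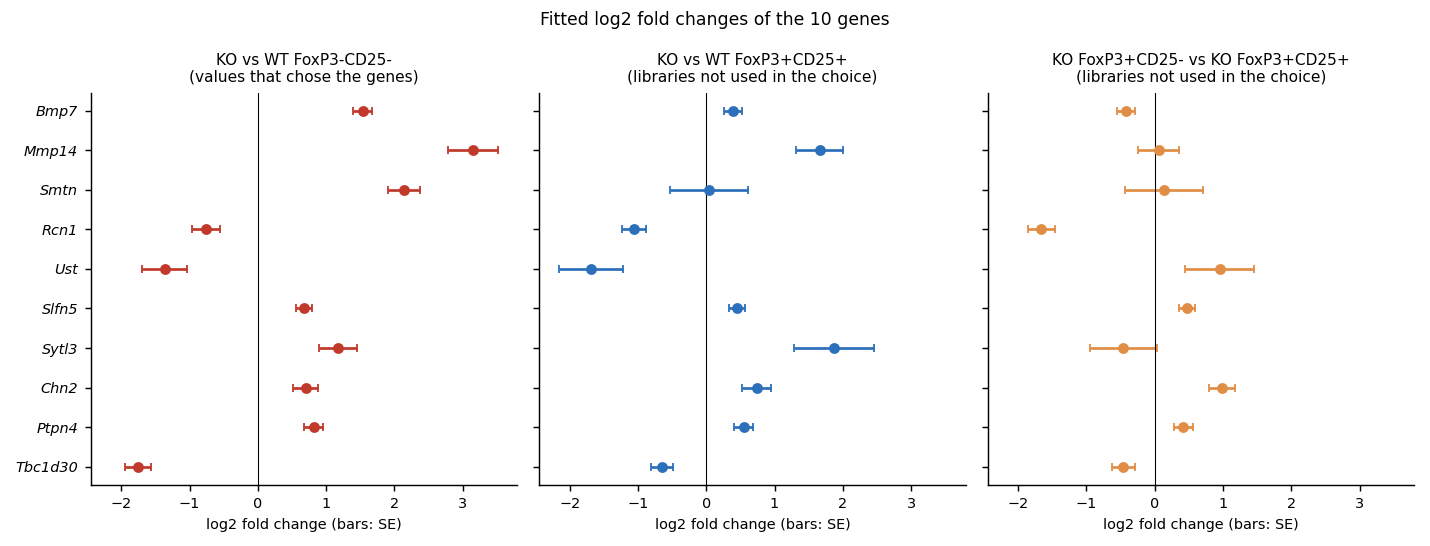
Log2 fold change of each gene (horizontal axes) with its SE as bars, for KO against WT among FoxP3-CD25- cells (left, from which the genes were chosen) and among FoxP3+CD25+ cells (middle), and for KO FoxP3+CD25- against KO FoxP3+CD25+ cells (right). Mmp14 is at 1.66 in the middle panel and at 0.06 in the right panel, whereas Rcn1 is at -1.06 and -1.66. Smtn and Sytl3 rest on low counts in both of these panels.

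Within KO mice, FoxP3+CD25- cells were compared with FoxP3+CD25+ cells, again in libraries that the stated rule did not use. Again 8 of the 10 genes passed the low-count filter with these libraries alone, without Smtn and Sytl3. Shares of all genes are again over the 13796 that passed the filter with 10 libraries. Of the 8, 3 had an FDR under 0.05 by edgeR's quasi-likelihood test with Benjamini-Hochberg adjustment, beside 7.01% of all genes (967, of which 311 were higher and 656 lower in FoxP3+CD25- cells). Libraries did not overlap for 3 genes that were higher in FoxP3+CD25- cells (Slfn5, Chn2 and Ptpn4), beside 24% of all genes, and for 3 that were lower (Rcn1, Bmp7 and Tbc1d30), beside 25.3%. Mmp14 and Ust overlapped. Rcn1 fell by 1.66 on the log2 scale (SE 0.20, edgeR FDR 0.000697), from 49.2 to 15.5 CPM, and passed the threshold in 13 of 13 alternatives. Chn2 rose by 0.98 (SE 0.19, edgeR FDR 0.0098), from 16.3 to 32.1 CPM, and passed in 10 of 13. Its FDR was 0.0845 without KO FoxP3+CD25- replicate 2, 0.0598 without KO FoxP3+CD25+ replicate 1 and 0.0899 without KO FoxP3+CD25+ replicate 2 (range over the alternatives 0.00127 to 0.0899). Slfn5 rose by 0.47 (SE 0.12, edgeR FDR 0.0425) and passed in 9 of 13. It missed the threshold when any of the 4 libraries was left out, with an FDR of 0.221 and 0.104 without KO FoxP3+CD25- replicates 1 and 2 and 0.211 and 0.194 without KO FoxP3+CD25+ replicates 1 and 2 (range 0.00476 to 0.221).

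Bmp7 missed the threshold in that comparison, at -0.42 (SE 0.13, edgeR FDR 0.0967), as did Ptpn4 at 0.42 (SE 0.14, edgeR FDR 0.105) and Tbc1d30 at -0.46 (SE 0.17, edgeR FDR 0.16). With a block for each mouse, a pairing that the replicate numbers imply but no label states, the 3 passed, with an edgeR FDR of 0.0201, 0.00756 and 0.0324. Ust was at 0.95 (SE 0.51), Sytl3 at -0.46 (SE 0.49), Smtn at 0.14 (SE 0.57) and Mmp14 at 0.06 (SE 0.30), each with overlapping libraries, and those of Smtn and Sytl3 rest on low counts. Ust was at 0.04 without KO FoxP3+CD25- replicate 2, within a range of 0.04 to 1.38 over the libraries left out. The signs of the other 3 rested on single libraries: without KO FoxP3+CD25- replicate 1, Mmp14 was at -0.27 and Smtn at -0.64, and without KO FoxP3+CD25+ replicate 2, Mmp14 was at -0.07 and Sytl3 at 0.13. Genes called numbered 562 and 410 without KO FoxP3+CD25- replicates 1 and 2, and 489 and 544 without KO FoxP3+CD25+ replicates 1 and 2. Of the 10 genes, 1 was called in 3 of these 4 settings and 2 without KO FoxP3+CD25- replicate 1. Markers of naive, effector or memory, follicular helper and regulatory T cells differed in the same comparison, as given with those lists. There B cell markers had a median of -0.57, with 1 of 3 called lower by edgeR, beside 7.01% of all genes. NK and CD8 markers had a median of -1.22, with 0 of 5 called by edgeR and 1 by DESeq2. The 1 dendritic marker tested was at -1.36 and was not called. The part of all these cells in the levels of the 10 genes was not tested.

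The remaining contrasts share libraries with the choice, so their values stand side by side without a test. KO FoxP3+CD25- cells have no WT counterpart, and against WT FoxP3-CD25- cells they differed by 2.92 (SE 0.37) for Mmp14, 1.43 (SE 0.14) for Bmp7, 1.19 (SE 0.14) for Ptpn4 and 1.07 (SE 0.12) for Slfn5 on the log2 scale. In the same contrast Smtn was at -2.51 (SE 0.38), Ust at -2.08 (SE 0.36) and Tbc1d30 at -0.26 (SE 0.17). These values hold the genotype and the FoxP3 status together, which cannot be told apart there. Against KO FoxP3-CD25- cells, KO FoxP3+CD25- cells were far lower in Smtn (-4.65, SE 0.33) and Sytl3 (-2.73, SE 0.36) and higher in Tbc1d30 (1.49, SE 0.19). Rcn1 (-0.02, SE 0.22) and Bmp7 (-0.11, SE 0.13) were close to equal in those KO groups. Among WT cells, FoxP3+CD25+ against FoxP3-CD25-, the widest differences were those of Sytl3 (-2.98), Smtn (-2.68), Rcn1 (1.95) and Bmp7 (1.46). Bmp7 in KO FoxP3-CD25- cells, at 44.5 ± 5.37 CPM, thus overlapped its level in WT FoxP3+CD25+ cells, 42.2 ± 0.646.

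The genes whose levels over the 10 libraries were most like those of each member were named by Pearson's r, which is a description since the 5 groups cluster. B3gat2 (r = 0.967) was closest to Bmp7 and Ptprf (0.959) to Mmp14. Gm11946 (0.980), the overlapping RNA, was closest to Smtn, with Cd4 (0.962) next, and Swsap1 (0.951) was closest to Sytl3. Rundc3a (0.974) was closest to Rcn1, Cpm (0.943) to Ust, Znrf2 (0.958) to Chn2 and Tbc1d19 (0.959) to Tbc1d30. Gm5127 was closest to both Ptpn4 (0.969) and Slfn5 (0.943), and Slfn5 and Ptpn4 followed each other (0.943).

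The nearest tested genes on either side of the 10 were read as neighbours, 19 in all with 1 side left out, of which 13 had a positive and 6 a negative KO minus WT difference among FoxP3-CD25- cells, beside 49.5% and 50.4% of all genes tested. By edgeR's quasi-likelihood test with Benjamini-Hochberg adjustment, 1 of the 19 had an FDR under 0.05 in FoxP3-CD25- cells, beside 0.145% of all genes, and 2 had an unadjusted p under 0.05, beside 8.02%. The 1 was Gm11946 (2.1, SE 0.32, FDR 0.0238), which shares exon bases with Smtn, chosen in this same contrast. Slfn5os (0.46, SE 0.26) and 9130019P16Rik (0.82, SE 0.46), also among the positive ones, share exon bases with Slfn5 and Chn2. Lrp10, whose start is 32525 bases from that of Mmp14, was at 0.66 (SE 0.13, edgeR FDR 0.103), and Mrpl52, 4703 bases from Mmp14 on the other side, at 0.22 (SE 0.28). DESeq2 called 2, Gm11946 and Lrp10, beside 0.871% of the genes it tested. In FoxP3+CD25+ cells edgeR called 0 of the 19, with 0 at an unadjusted p under 0.05 (beside 4.29% of all genes), and DESeq2 called 0. Without WT replicate 1, Gm11946 was at 1.89 (SE 0.31), Lrp10 at 0.68 (SE 0.13) and Mrpl52 at 0.36 (SE 0.22) in FoxP3-CD25- cells.

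**Figure D3:**
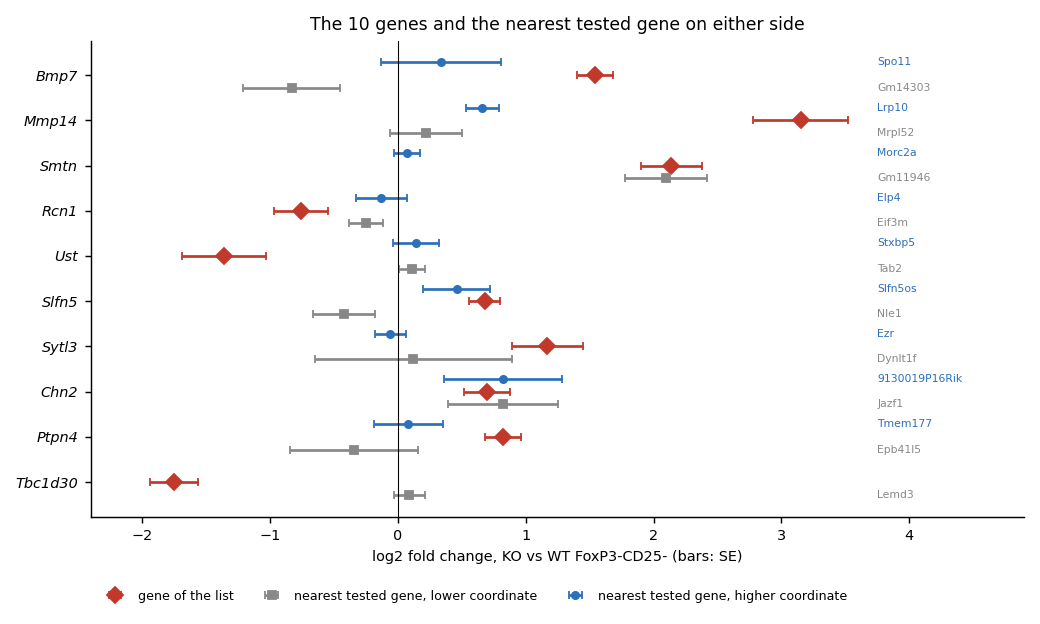
Log2 fold change, KO against WT FoxP3-CD25- (horizontal axis, bars SE), for each of the 10 genes (diamonds, vertical axis) and for the nearest tested gene at lower (squares) and higher (circles) coordinates. Gm11946 beside Smtn reaches 2.1, whereas Mrpl52 beside Mmp14 lies at 0.22.

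Relatives of the genes in pathway or family were read from lists. For Bmp7, 16 other genes of the BMP pathway passed the low-count filter. Among FoxP3-CD25- cells edgeR called 1 higher and 0 lower in KO, beside 0.145% of all genes tested (median log2 difference 0.01). The 1 called was Id3, a nuclear target of BMP signals, at 1.19 (SE 0.18, FDR 0.0326). In the same cells 2 of the 16 had an unadjusted p under 0.05 by edgeR, beside 8.02%, and DESeq2 called 1, Id3, beside 0.871%. In FoxP3+CD25+ cells edgeR called 0 of the 16, and DESeq2 called 0 (median -0.09). The 1 gene at an unadjusted p under 0.05 by edgeR, beside 4.29% of all genes, was Twsg1, at -0.63 (SE 0.16). It binds BMP ligands outside the cell. Id3 was at 0.37 (SE 0.17). Bmpr1a, a receptor for BMP ligands, was at -1.82 (SE 0.62) in FoxP3-CD25- cells. Without WT replicate 1, Id3 was at 1.12 (SE 0.17) in FoxP3-CD25- and 0.14 (SE 0.16) in FoxP3+CD25+ cells. Twsg1 was then at -0.34 (SE 0.13) in FoxP3+CD25+ cells. The list medians were 0.04 for FoxP3-CD25- and 0.15 for FoxP3+CD25+ cells.

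In the other lists, which hold 130 tested genes beside the 10, edgeR called 0 genes in either population. In FoxP3-CD25- cells 23 had an unadjusted p under 0.05 by edgeR, beside 8.02% of all genes tested, and DESeq2 called 4, beside 0.871%. These were Cd44 (0.72 on the log2 scale), a partner of Mmp14 at the cell surface, Tbc1d4 (0.68), Ptpn13 (0.99) and Tiam1 (0.90). In FoxP3+CD25+ cells 10 had an unadjusted p under 0.05 by edgeR, beside 4.29% of all genes tested, and DESeq2 called 0. Median log2 differences in FoxP3-CD25- and in regulatory FoxP3+CD25+ cells were 0.22 and -0.15 over 10 membrane-type metalloproteinases and partners, -0.12 and 0.03 over 8 contractile actin-binding proteins, and 0.03 and -0.08 over 33 TBC-domain proteins. They were 0.15 and -0.09 over 15 non-receptor tyrosine phosphatases, 0.06 and -0.04 over 9 Rac regulators, and 0.17 and 0.01 over 8 Rab27 effectors and docking proteins. They were -0.03 and -0.05 over 6 other Schlafen genes, -0.05 and 0.03 over 4 relatives of Rcn1, 0.16 and -0.02 over 19 glycosaminoglycan enzymes, and 0.05 and 0.08 over 18 interferon-stimulated genes. The interferon-stimulated genes, which like Slfn5 respond to interferon, thus had a median near 0 in both populations. Rsad2, with the lowest p among them in FoxP3-CD25- cells, was at 0.64 (SE 0.21, edgeR FDR 0.409). Without WT replicate 1, the medians of these lists lay between -0.10 and 0.29 in FoxP3-CD25- and between -0.14 and 0.09 in FoxP3+CD25+ cells.

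Summed levels of CD4+ T cell subset markers did not overlap between KO and WT FoxP3-CD25- cells. In the fit of all 10 libraries edgeR called 0 of these markers there. Between the KO FoxP3+ groups edgeR called markers of each subset. The counts that follow of markers between KO and WT FoxP3-CD25- cells stand beside 8.02% of all genes at an unadjusted p under 0.05 by edgeR and 0.871% called by DESeq2. Summed levels of 9 effector or memory markers were 1520 and 862 CPM in WT FoxP3-CD25-, 2040 and 2620 in KO FoxP3-CD25-, 435 and 396 in KO FoxP3+CD25-, 2270 and 1300 in WT FoxP3+CD25+ and 1350 and 1290 in KO FoxP3+CD25+ cells. Both KO FoxP3-CD25- libraries were thus above both WT ones, with Ahnak the marker of highest mean over the 10 libraries, a median log2 difference of 0.82 and 0 of 9 called by edgeR (7 at an unadjusted p under 0.05, and 1, Cd44, called by DESeq2). In FoxP3+CD25+ cells the median was -0.51. Summed levels of 6 naive markers, with Tcf7 highest on average, were 5380 and 5490 CPM in WT FoxP3-CD25-, 4650 and 4490 in KO FoxP3-CD25-, 4220 and 4650 in KO FoxP3+CD25-, 2340 and 2850 in WT FoxP3+CD25+ and 2460 and 2450 in KO FoxP3+CD25+ cells. KO FoxP3-CD25- libraries were the lower ones here (median -0.37, with 0 of 6 called by edgeR, 4 at an unadjusted p under 0.05 and 2, Dapl1 and Igfbp4, called by DESeq2). Regulatory T cell markers (7, with Ikzf2 highest on average) summed to 341 and 220 CPM in WT FoxP3-CD25-, 457 and 479 in KO FoxP3-CD25-, 717 and 560 in KO FoxP3+CD25-, 4350 and 3540 in WT FoxP3+CD25+ and 3700 and 3380 in KO FoxP3+CD25+ cells. They were higher in KO than in WT FoxP3-CD25- cells (median 0.88, with 0 of 7 called by edgeR, 4 at an unadjusted p under 0.05 and 1, Ikzf2, called by DESeq2). Follicular helper markers (9, with Icos highest in each library) summed to 331 and 269 CPM in WT FoxP3-CD25-, 425 and 504 in KO FoxP3-CD25-, 203 and 171 in KO FoxP3+CD25-, 600 and 399 in WT FoxP3+CD25+ and 441 and 413 in KO FoxP3+CD25+ cells. Again KO FoxP3-CD25- libraries were above WT ones (median 0.45, with 0 of 9 called by edgeR, 5 at an unadjusted p under 0.05 and 2, Pdcd1 and Tox2, called by DESeq2), and in FoxP3+CD25+ cells the median was -0.66. FoxP3+CD25+ medians were -0.12 for regulatory and 0.02 for naive markers. For KO FoxP3+CD25- against KO FoxP3+CD25+ cells, where edgeR called 7.01% of all genes, the median was 1.09 for naive markers (4 of 6 called higher), -1.61 for effector or memory (5 of 9 called lower) and -0.97 for follicular helper markers (5 of 9 called lower). It was -3.16 for regulatory markers (7 of 7 called lower), which include the sort genes Foxp3 and Il2ra. Without WT replicate 1, the FoxP3-CD25- medians were 1.41 for effector or memory, 0.72 for follicular helper, 1.27 for regulatory and -0.37 for naive markers. The FoxP3+CD25+ medians were then -0.15, 0.10, -0.07 and 0.00, so the values of -0.51 and -0.66 rested on the high sums of WT FoxP3+CD25+ replicate 1. The part of these subsets in the levels of the 10 genes was not tested.

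**Figure D4:**
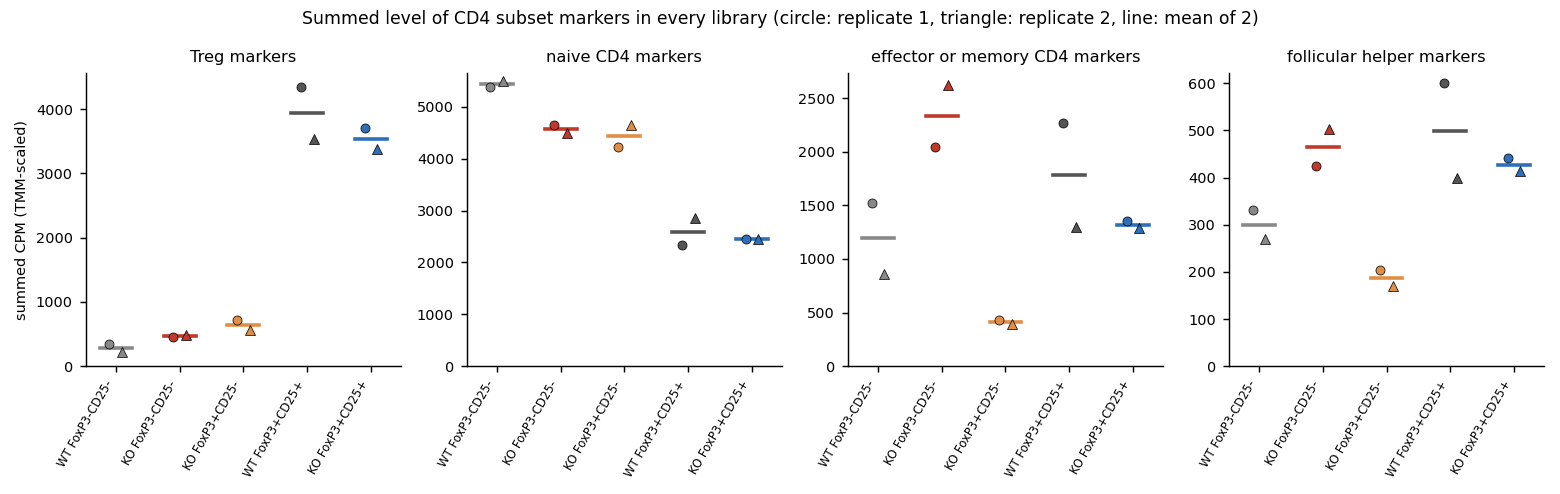
Summed level of each marker list in CPM (vertical axes, each starting at 0) in the 10 libraries, by sorted group, where circles are replicate 1, triangles are replicate 2 and lines are the means of 2. Effector or memory markers reach 2040 and 2620 CPM in KO FoxP3-CD25- cells, against 1520 and 862 in WT FoxP3-CD25- cells, and naive markers are lower.

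Markers of T cells, with Cd4 highest in 7 libraries and Lck in 3, were present throughout, at 2740 to 3590 CPM summed over 5 genes. Those of other cells were lower. B cell markers summed to 223 to 598 CPM, almost all of it Ighm, while Ms4a1 had at most 5 counts in a library. Cd79b was at 1.41 and 0.826 CPM in WT FoxP3-CD25-, 5.13 and 3.16 in KO FoxP3-CD25-, 4.04 and 2.41 in KO FoxP3+CD25-, 19.1 and 14.6 in WT FoxP3+CD25+ and 14.6 and 14.4 in KO FoxP3+CD25+ cells. The B cell markers differed in direction among FoxP3-CD25- cells: Cd79b was at 1.81 (SE 0.44, edgeR FDR 0.212), Cd79a at 0.25 (SE 0.58), and Ighm at -0.39 (SE 0.18), with 326 and 302 CPM in WT against 215 and 265 in KO. EdgeR called 0 of the 3, with 1 at an unadjusted p under 0.05, and DESeq2 called 1, Cd79b. Their median was 0.25 for FoxP3-CD25- and -0.21 for FoxP3+CD25+ cells (1.02 and -0.05 without WT replicate 1). NK and CD8 markers summed to 61.6 and 30.8 CPM in WT FoxP3-CD25-, 44.3 and 57.3 in KO FoxP3-CD25-, 14.4 and 17.8 in KO FoxP3+CD25-, 19.1 and 20.8 in WT FoxP3+CD25+ and 25.6 and 24.9 in KO FoxP3+CD25+ cells (Cd8b1 highest in 6 libraries, Eomes in 2 and Nkg7 in 2, with Ncr1 at most 2 counts). EdgeR called 0 of 5 of them in either population, with 1 at an unadjusted p under 0.05 among FoxP3-CD25- cells and 0 among FoxP3+CD25+ cells, and DESeq2 called 0. Their median was 0.14 for FoxP3-CD25- and 0.92 for FoxP3+CD25+ cells, and 0.98 and 0.70 without WT replicate 1. For flow cytometry, the authors' methods list B220, CD4 and CD8β among the antibodies used to gate lineages. The part of B, NK and CD8 cells in the levels of the 10 genes was not tested. Myeloid markers summed to 17.6 to 25.2 (Csf1r highest in each library) and dendritic markers to 1.08 to 8.06 (Zbtb46 highest on average). Erythroid markers summed to 0.745 to 2.30 CPM (Alas2 highest on average), platelet markers to 1.98 to 4.27 (Itga2b highest, with Pf4 at 0 in every library) and stromal markers to 180 to 335, almost all of it Pecam1, which lymphocytes also express.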

How the data were processed

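RNA from 10 libraries was measured as deposited raw read counts per gene, which the authors made by aligning to mm10 (GRCm38) with HISAT2 2.1.0 and counting with HTSeq 0.11.1, per the labels. The annotation release and the strand setting used for counting were not stated. Between 26.0% and 28.5% of the reads tallied were on genes, and the rest were in 5 tallies of unassigned reads. Counts were fitted for 13796 genes that passed a filter on low counts (minimum 10), 10 of the 10 genes among them, with TMM factors in 1 model of 10 libraries and 5 group means, with edgeR 4.0.16 and limma 3.58.1 in R 4.3.3. Quasi-likelihood p-values were adjusted by Benjamini-Hochberg over all genes, with calls at an FDR under 0.05. SE is that of the log2 difference, derived from the F statistic. A p-value sets a difference against a spread between libraries that was estimated over all 5 groups, with no block for mouse in the main fit. The labels imply but do not state that each replicate was a separate mouse. An exact permutation test of 2 against 2 samples cannot go below p = 0.333, two-sided, so none was run. The alternatives were DESeq2 1.42.0, other filters and scalings, edgeR's older quasi-likelihood method, only the 4 libraries compared, a block for replicate or mouse, and leaving out libraries. Steps were tested on simulated data. The genes and lists were chosen with earlier results of these data known. Named genes were the 10, the nearest tested neighbours (1 left out), the 2 most alike genes over the 10 libraries and the 2 genes of lowest p in each list. Positions came from GENCODE M21, in which 13346 of the 13796 tested symbols (96.7%) matched 1 gene. Python 3.11.15, pandas 2.3.3, numpy 2.4.6 and matplotlib 3.10.9 were used for tables and figures.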

Additional observations from a re-analysis of the deposited data

Results flagged for a closer look

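Beside the 10, 57 genes were examined for this: the 2 of lowest p in each pathway or family list in each population, the neighbours, Satb1, Foxp3 and Il2ra. In 9 of them, each KO library lay on one side of both WT libraries in FoxP3-CD25- cells and on the other side in FoxP3+CD25+ cells. Over all 13796 genes tested, 4.48% did so. Most of the 57 were named for a low p in 1 of these populations, which favours libraries that do not overlap. The difference is given as the log2 fold change of KO over WT in FoxP3+CD25+ minus that in FoxP3-CD25- cells. By edgeR's test of this difference, 0 of 13796 genes had an FDR under 0.05, with 685 at an unadjusted p under 0.05. It was negative for Tiam1 (-1.46, FDR 0.476), Ptpn13 (-1.40, FDR 0.52), Cd44 (-1.28, FDR 0.476), Tbc1d4 (-1.23, FDR 0.476), Dsel (-1.12, FDR 0.717), Twsg1 (-0.99, FDR 0.52) and Rab8b (-0.55, FDR 0.722), which were higher in KO FoxP3-CD25- cells and lower in KO FoxP3+CD25+ cells. It was positive for Rcn3 (1.84, FDR 0.825) and Cnn3 (1.20, FDR 0.549). Marker lists of T cell subsets had medians of opposite sign in the same comparisons: 0.82 for FoxP3-CD25- against -0.51 for FoxP3+CD25+ cells over effector or memory markers, which include Cd44, and 0.45 against -0.66 over follicular helper markers. The FoxP3+CD25+ side rested on WT replicate 1: effector or memory markers summed to 2270 and 1300 CPM in WT against 1350 and 1290 in KO, and follicular helper markers to 600 and 399 against 441 and 413. Without both libraries of WT replicate 1, chosen after seeing the data, those medians were 1.41 against -0.15 and 0.72 against 0.10. The difference was then -1.56 for Tiam1, -1.53 for Ptpn13, -1.14 for Cd44, -1.10 for Tbc1d4, -0.83 for Dsel, -0.70 for Twsg1, -0.56 for Rab8b, 1.49 for Rcn3 and 0.92 for Cnn3, with edgeR FDRs of 0.467 to 1. In FoxP3+CD25+ cells KO minus WT was then -0.21 for Cd44 (from -0.56), -0.23 for Tbc1d4 (from -0.55) and -0.15 for Dsel (from -0.46). It was -0.34 for Twsg1 (from -0.63), -0.37 for Tiam1 (from -0.57) and -0.25 for Ptpn13 (from -0.41). For Rab8b it was -0.1 (from -0.17), for Rcn3 0.88 (from 1.14) and for Cnn3 0.65 (from 0.88). The part of these subsets was not tested.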

How the results depend on the processing

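DESeq2 changed the test, the scaling and the genes tested together, and fits on fewer libraries changed which genes passed the filter. For KO against WT FoxP3+CD25+ cells, genes called (1 as reported) were 5 with no filter, 5 by DESeq2, 4 with the replicate block, 0 with only the 4 libraries compared and 1 to 7 with single libraries left out. Members called (0 as reported) were 1 with no filter, 2 by DESeq2, 0 with the replicate block and 0 in each fit that left out 1 library. For KO FoxP3+CD25- against KO FoxP3+CD25+ cells, genes called (967) were 2090 with a block for each mouse, 1422 with the replicate block and 410 to 562 with single libraries left out. Members called (3) were 6, 4 and 1 to 2. The 6 added Bmp7 (FDR 0.0201), Ptpn4 (0.00756) and Tbc1d30 (0.0324), and the replicate block added Bmp7 (0.0341), within FDR ranges over 13 alternatives of 0.0201 to 0.419, 0.00756 to 0.418 and 0.0324 to 0.496. For KO against WT FoxP3-CD25- cells, genes called (20) were 91 with no filter, 31 with library size alone, 108 with the replicate block, 66 with only the 4 libraries, 103 by DESeq2 and 0 to 4 with single libraries left out. Members called (4, a description, since this contrast chose them) were 7 with no filter, 6 with library size alone, 6 with the replicate block, 5 with only the 4 libraries, 6 by DESeq2 and 0 to 3 with single libraries left out. With both libraries of WT replicate 1 left out, chosen after seeing the data, every member kept its direction in both contrasts of KO with WT. Since that fit left 1 WT library in each population, only directions are given here. The cause of the changes in the numbers called was not tested, beyond fewer libraries where some were left out.

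The sign turned in 5 cases, each with 1 library left out. Smtn ranged from -0.36 to 0.53 between KO and WT FoxP3+CD25+ cells. Between the KO FoxP3+ groups, Smtn ranged from -0.64 to 0.80, Sytl3 from -0.83 to 0.13 and Mmp14 from -0.27, with -0.07 in another, to 0.37. A lone sample was assumed to vary like the other groups. With only the 4 libraries, Smtn and Sytl3 did not pass the filter in the comparisons among FoxP3+ cells, and all 10 passed in FoxP3-CD25- cells. Pairing by mouse is implied by the replicate numbers but not stated: the difference between replicates correlated over 13796 genes at r = 0.303 between the WT groups and 0.421 to 0.445 between KO groups, against -0.0114 to 0.114 between genotypes, which share no mouse.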
